A study of Mus musculus with 11 samples.

Results

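The mitochondrial ribosomal protein genes were taken by symbol, as the protein-coding mouse genes named Mrpl or Mrps followed by digits. There were 78 of them among 55414 gene identifiers, of which 52081 had a symbol, and all 78 passed the filter on low counts. Of these, 51 encode proteins of the large mitoribosomal subunit and 26 proteins of the small one. Mrps30 and Mrps18a carry small-subunit names but belong to the large subunit. Mrps36 keeps its symbol although its product is a part of the 2-oxoglutarate dehydrogenase complex and not of the ribosome. The RNA came from the heart apex of C57BL/6 mice, a wild-type inbred strain, in 3 groups of bulk libraries. NR (n = 4) had no irradiation, S-PRT (n = 4) had standard proton radiotherapy and F-PRT (n = 3) had FLASH proton radiotherapy, which is given at an ultra-high dose rate. Both irradiated groups received a single focal dose of 40 Gy to the apex and were read 2 weeks later. The labels give neither age nor sex and do not tie libraries to animals, so that the spread behind each p-value is that between libraries and may be technical.

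Mitoribosomes translate the few proteins that mitochondrial DNA encodes, all of them core subunits of the respiratory chain and ATP synthase. Their ribosomal RNAs are made in the mitochondrion, while every ribosomal protein is made in the cytosol from a nuclear gene and imported. Many of these proteins have a bacterial counterpart and the others were added during the evolution of mitochondria. The heart depends on oxidative phosphorylation and is rich in mitochondria, and defects in several of these genes, among them MRPL3, MRPL44 and MRPS22 in people, are known causes of cardiomyopathy. Here 46 members had a bacterial homologue (30 large, 16 small) and 31 were specific to mitochondria (21 large, 10 small).

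The promoters of such genes are known for binding sites of ETS factors such as GABP and of NRF1 and YY1, often without a TATA box. RefSeq's promoter table (GRCm38.p6, 300 bases a promoter) held 75 promoters of 69 members. Mrps35, Mrpl4, Mrpl15, Mrpl54, Mrpl38, Mrps28, Mrpl19, Mrps34 and Mrpl13 had no entry. The stretches below run from 130 bases before the start to 20 bases from it on, 5′ to 3′ on the gene's strand, with exact motif matches in capitals. Mrpl52 is shown as the member with the largest fold change in F-PRT, and Mrpl27 as a member that rose after both modes. Mrps18a is shown as the member with the smallest p between the modes, and Mrps22 as a cardiomyopathy gene whose level hardly differed between groups.
Mrpl52 (chr14:54426779-54426928, plus strand): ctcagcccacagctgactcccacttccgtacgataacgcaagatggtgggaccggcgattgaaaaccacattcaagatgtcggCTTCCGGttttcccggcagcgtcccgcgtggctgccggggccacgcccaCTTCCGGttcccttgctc
Mrpl27 (chr11:94653661-94653810, plus strand): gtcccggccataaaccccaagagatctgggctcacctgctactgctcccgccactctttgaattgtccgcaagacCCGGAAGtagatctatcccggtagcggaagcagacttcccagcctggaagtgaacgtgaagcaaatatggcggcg
Mrps18a (chr17:46110874-46111023, plus strand): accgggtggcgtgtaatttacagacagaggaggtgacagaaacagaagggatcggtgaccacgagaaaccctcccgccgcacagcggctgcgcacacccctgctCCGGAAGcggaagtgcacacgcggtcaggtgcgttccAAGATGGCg
Mrps22 (chr9:98601660-98601809, minus strand): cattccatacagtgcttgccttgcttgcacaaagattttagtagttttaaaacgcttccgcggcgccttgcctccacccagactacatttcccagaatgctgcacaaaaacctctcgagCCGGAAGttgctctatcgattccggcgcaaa
The capitals mark the ETS motif CCGGAAG or its reverse complement and, in Mrps18a, the YY1 motif AAGATGGC beside the start. Over the whole 300 bases and both strands, CCGGAAG stood in 34.7% of member promoters, 16.4% of promoters of the other tested protein-coding genes and 8.86% of all promoters in the table. For AAGATGGC the shares were 16% of member promoters, 4.07% and 2.75%. For the NRF1 motif GCGCATGCG they were 9.33%, 3.4% and 1.75%. Matches of different motifs overlapped in 0 member promoters. The letters TATAAA between 50 and 16 bases upstream were in 0 of 75 member promoters and in 1.22% of those of the other tested genes. A match is a run of letters and not a measured site.

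Library totals ran from 20758170 to 40136578 expected counts, of which members took 0.258% to 0.336% in NR, 0.294% to 0.315% after S-PRT and 0.299% to 0.507% after F-PRT. Mitochondrially encoded genes took 30.6% to 43.8% of NR counts, 37.1% to 43.5% of S-PRT counts and 24.2% to 42.3% of F-PRT counts. F-PRT 4 had the highest member share and the lowest mitochondrial share of the 11 libraries. Every cardiomyocyte marker looked up was detected, with Myh6 at 21900 ± 1920 CPM (SD, n = 4) in NR. CPM here are counts relative to library totals that TMM, a factor aligning the bulk of genes between libraries, has scaled. Expected counts were whole numbers in every library for 48 members. They were never whole for 9 members, whose reads were shared with other genes and whose values are uncertain: Mrpl19, Mrpl23, Mrpl24, Mrpl47, Mrpl48, Mrpl53, Mrps18b, Mrps27 and Mrps34. Of 5 annotated pseudogenes of the same symbols, Mrpl23-ps1 had 51.7 to 186 expected counts in each library and the others at most 5.81.

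Without irradiation the members spanned a 50.6-fold range of TPM, a level per transcript length. Mrpl42, a mitochondria-specific large-subunit protein, was highest at 310 ± 40.1 TPM (SD, n = 4, range 267 to 360), but its counts were whole in only 1 library. Mrps21, the homologue of bacterial S21, followed at 215 ± 37.7 TPM and Mrps23 at 179 ± 37.8 TPM. The lowest and highest libraries of these neighbours overlapped between Mrps21 and Mrps23, while Mrpl42 lay above both. At the other end stood Mrpl1 with 10.2 ± 1.66 TPM, Mrps30 with 9.24 ± 1.71 TPM and Mrpl19 with 6.13 ± 1.09 TPM. The median member had 39.5 TPM, against 3.66 TPM over all 14556 genes tested. By subunit the medians were 41 TPM for the large and 31.4 TPM for the small one. Genes whose products work with the mitoribosome were lower, with median TPM of 7.99 for 27 assembly and rRNA modification factors, 8.07 for 20 mitochondrial aminoacyl-tRNA synthetases and 17.5 for 15 translation factors. Cytosolic ribosomal protein genes had a median of 260 TPM and nuclear respiratory chain genes one of 465 TPM in the same libraries.

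**Figure D1:**
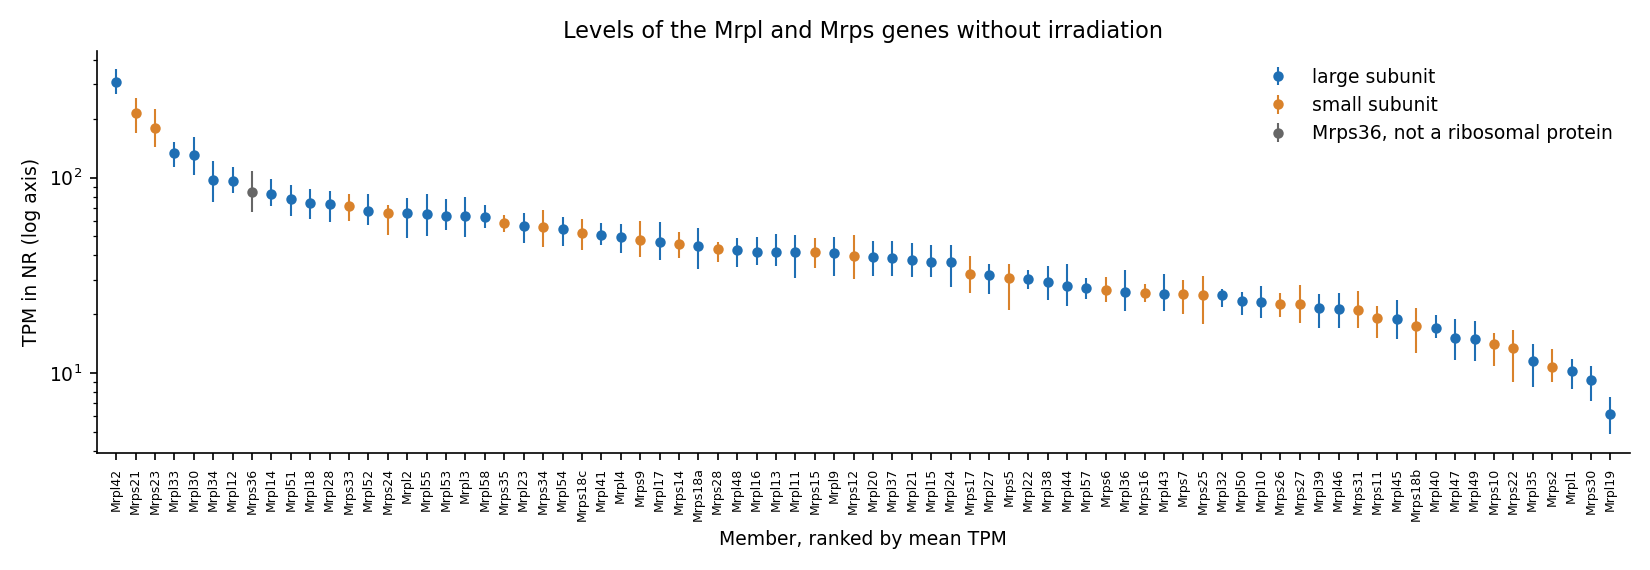
Mean TPM of each Mrpl and Mrps gene in the 4 NR libraries on a log axis, ranked, with vertical lines from the lowest to the highest library and colours for the subunit. Mrpl42, Mrps21 and Mrps23 lead and Mrpl1, Mrps30 and Mrpl19, all of the large subunit, are lowest.

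F-PRT was compared with NR to see whether FLASH irradiation changed these genes. Of the 78 members 37 rose and 0 fell (edgeR quasi-likelihood test, Benjamini-Hochberg adjusted p under 0.05 over all genes), which is 47.4% beside a background of 10.8% of all genes called higher. Their log2 fold changes ran from -0.10 to 0.76 with a median of 0.34, against 0.028 over all genes, and 76 members were positive. Without any adjustment 56 members had p under 0.05. The calls held neither with scaling by library size alone (0 members called, 45 at an unadjusted p under 0.05), nor on TPM (0 members called with a pseudocount of 1, 20 at an unadjusted p under 0.05, median 0.32) nor with the trend on transcript length removed (0 called, 13 at an unadjusted p under 0.05, median 0.016), where 1.92% of all genes were called higher. Few genes of any kind were called in the first 2 settings. Of all 14556 genes, 69 were called higher with library size alone and 37 on TPM with a pseudocount of 1. In bulk RNA a change in the number of cells of a type and a change in RNA per cell cannot be told apart.

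Mrpl52, a mitochondria-specific large-subunit protein and the shortest transcript of the set, had 14.6, 14, 13.1 and 13.5 CPM in NR and 21.5, 19 and 29.4 CPM in F-PRT. The F-PRT libraries all lay above NR, with F-PRT 4 highest, and the log2 fold change was 0.76 ± 0.13 (SE, adjusted p = 0.0075 by edgeR, 1.69-fold). Mrpl27, homologue of bacterial L27 at the peptidyl transferase centre, had 17.4, 17.9, 18.5 and 16.2 CPM in NR against 26.6, 24.7 and 29.4 CPM in F-PRT. Here too the groups did not overlap (log2 fold change 0.62 ± 0.086 SE, adjusted p = 0.0035 by edgeR). Expected counts of Mrpl27 were whole in 5 of 11 libraries.

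Among the other large-subunit members, Mrpl34 had 37.4, 39, 38.3 and 39.4 CPM in NR and 52.9, 52 and 66.6 CPM in F-PRT, a log2 fold change of 0.57. Mrpl12, the L7/L12-type stalk protein that recruits translation factors, had 119, 117, 103 and 106 CPM in NR and 145, 155 and 188 CPM in F-PRT. No F-PRT library of either gene reached down to NR. Log2 fold changes of Mrpl12, Mrpl53, Mrpl11, Mrpl18 and Mrpl33 lay between 0.54 and 0.56 with adjusted p from 0.0093 to 0.032 by edgeR. Mrpl11, next to Mrpl12 in the stalk region, went from 27.4 ± 1.73 to 39.8 ± 8.44 CPM (SD, n = 4 and 3). Mrpl58, a peptidyl-tRNA hydrolase built into the large subunit, rose by 0.39 ± 0.11 on the log2 scale (SE, adjusted p = 0.034 by edgeR). Mrps18a, the large-subunit member of the S18 family, rose by 0.48 ± 0.11 (adjusted p = 0.013 by edgeR).

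In the small subunit, Mrps16 had 23.9, 23, 21.2 and 21.6 CPM in NR and 30, 29.5 and 41.3 CPM in F-PRT, with a log2 fold change of 0.59 ± 0.13 (SE, adjusted p = 0.013 by edgeR). Mrps21 had 51.9, 54.6, 53.2 and 50.8 CPM in NR and 65.2, 65.1 and 102 CPM in F-PRT, with F-PRT 4 far above the other 2 (log2 fold change 0.56 ± 0.15 SE, adjusted p = 0.024 by edgeR). Mrps12, the homologue of the decoding-site protein S12, rose by 0.54 ± 0.12 (adjusted p = 0.013 by edgeR). The other paralogues of the S18 family also rose, Mrps18b by 0.41 (adjusted p = 0.015 by edgeR) and Mrps18c by 0.39 (adjusted p = 0.035 by edgeR). Mrps23 went from 101 ± 4.48 to 133 ± 11.3 CPM (log2 fold change 0.40, adjusted p = 0.023 by edgeR).

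Members that did not pass were spread over both subunits. Mrps22, a mitochondria-specific small-subunit protein, had 11.5, 14.1, 15.1 and 13.8 CPM in NR and 12.9, 14.5 and 13.9 CPM in F-PRT. Its groups overlapped fully (log2 fold change 0.015 ± 0.13 SE, adjusted p = 0.95 by edgeR). Mrpl3 and Mrpl44, which like Mrps22 are linked to cardiomyopathy, had log2 differences of 0.17 ± 0.11 and 0.24 ± 0.10 (adjusted p = 0.26 and 0.11 by edgeR). For Mrps5 the difference was 0.13 ± 0.085, and for Mrps30 it was 0.22 ± 0.13. The most abundant member, Mrpl42, had 150, 143, 137 and 132 CPM in NR and 160, 171 and 184 CPM in F-PRT and missed the threshold (0.29 ± 0.099, adjusted p = 0.055 by edgeR). Mrps36, the one without a ribosomal role, differed by 0.33 ± 0.13 (adjusted p = 0.094 by edgeR). The lowest value belonged to Mrpl39, at -0.10, which is named after its value was seen.

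**Figure D2:**
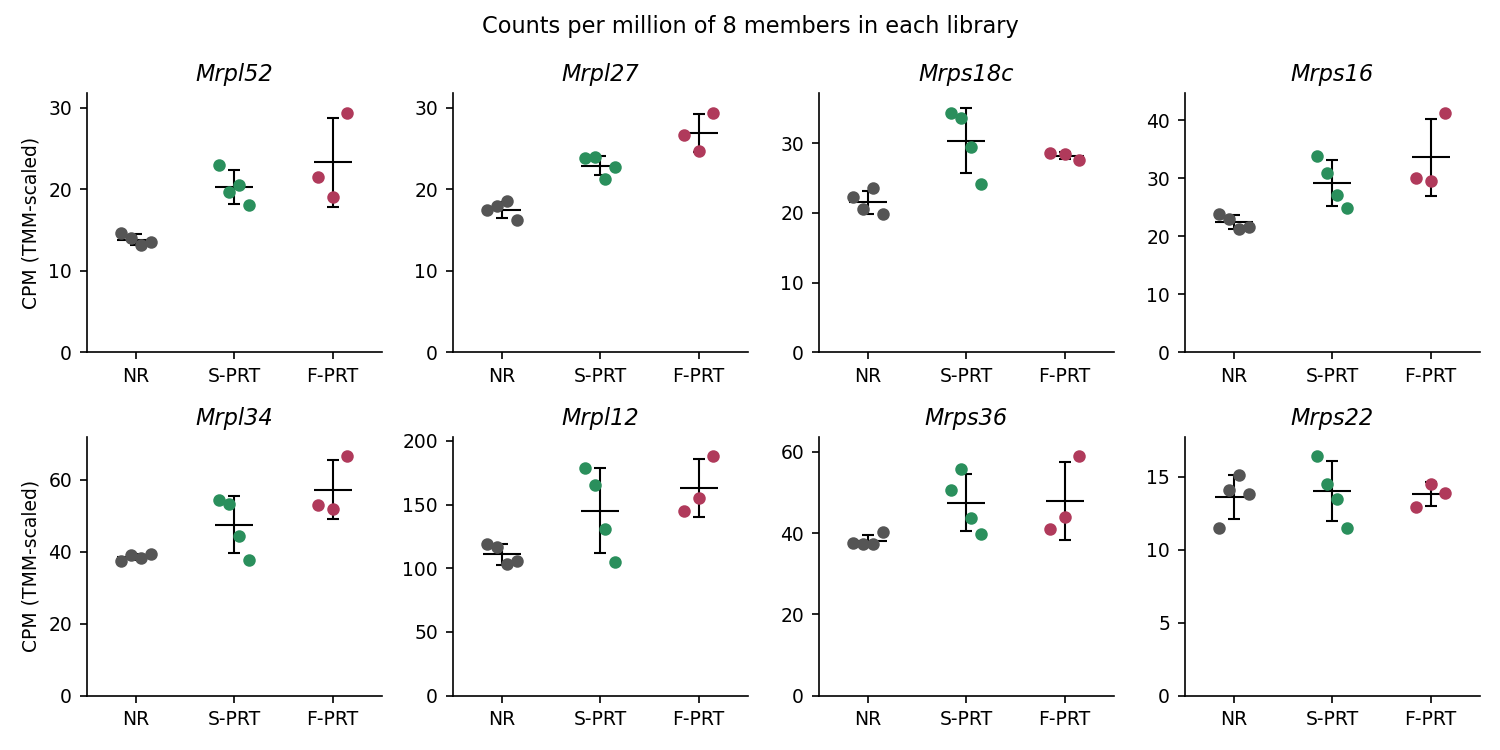
CPM of 8 members in each library (points), with the group mean (bar) and SD (whiskers), on axes that start at 0. The F-PRT libraries of Mrpl52, Mrpl27, Mrps16, Mrpl34 and Mrpl12 all lie above NR, while Mrps22 overlaps between all groups.

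The members that rose came from both subunits and both evolutionary origins. In F-PRT against NR 25 of 51 large-subunit and 12 of 26 small-subunit members rose, with median log2 fold changes of 0.37 and 0.31. Members with a bacterial homologue rose in 22 of 46 cases (median 0.35) and mitochondria-specific ones in 15 of 31 (median 0.33). These splits were not tested against each other. The F-PRT libraries lay wholly above NR for 61 members (78.2%), beside 17.5% of all genes, 45.7% of genes of similar length and 70.4% of the 223 genes of similar length and level.

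S-PRT was compared with the same 4 NR libraries, so both comparisons share their controls. Only Mrps18c and Mrpl27 rose and 0 members fell, 2.56% of members beside 0.872% of all genes called higher. The share was 1.94% among genes of similar length and 2.69% among the 223 of similar length and level. The median log2 fold change was 0.18, against 0.0068 over all genes, and 74 members were positive. Without adjustment 25 members had p under 0.05. Mrps18c, homologue of bacterial S18, had 22.3, 20.5, 23.6 and 19.8 CPM in NR and 34.4, 33.6, 29.4 and 24.1 CPM in S-PRT. All 4 S-PRT libraries lay above NR (log2 fold change 0.49 ± 0.11 SE, adjusted p = 0.046 by edgeR). Mrpl27 had 23.8, 23.9, 21.3 and 22.7 CPM in S-PRT, also all above NR (0.39 ± 0.08 SE, adjusted p = 0.037 by edgeR).

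Mrpl52, Mrpl20 and Mrps18b came next by p. Mrpl52 had 23, 19.7, 20.5 and 18.1 CPM in S-PRT against 13.1 to 14.6 CPM in NR, with no overlap (0.56 ± 0.13 SE, adjusted p = 0.052 by edgeR). Mrpl20 went from 21.5 ± 0.747 to 28.9 ± 3.59 CPM (0.43 ± 0.10, adjusted p = 0.058) and Mrps18b from 15.1 ± 0.755 to 19.5 ± 2.15 CPM (0.37 ± 0.089, adjusted p = 0.064, both by edgeR). Mrpl12 had 179, 165, 131 and 105 CPM in S-PRT, so that S-PRT 1 to 3 lay above NR and S-PRT 4 within it. For 13 members (16.7%) the S-PRT libraries lay wholly above NR, beside 7.34% of all genes, 18.2% of genes of similar length and 29.6% of the 223 genes of similar length and level. With the replicate number as a block, 13 members were called higher, the 2 above among them, beside 6.42% of all genes. The check behind this block could not tell pairs by number from the sets of libraries described below. Leaving out any NR library, or S-PRT 1, 2 or 3, left 0 members called, with 11 to 29 at an unadjusted p under 0.05. Over all genes, 20 to 25 were called higher without 1 NR library, beside 127 with all libraries. Without S-PRT 1, 2 and 3 they were 116, 149 and 21. On TPM with a pseudocount of 1 the median difference was -0.039, beside -0.13 over all genes. There 0 members were called at either threshold.

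Between the irradiation modes 0 members were called, beside 0% of all genes by edgeR, and 12 members had an unadjusted p under 0.05. DESeq2 and limma on TPM also called 0 members, while over all 14556 genes DESeq2 called 167 and the TPM fits 9 and 4. The median log2 difference of F-PRT minus S-PRT was 0.17 (0.002 over all genes), and 72 members were positive. Mrps18a had the smallest p, with 35, 37.9, 32.9 and 29.9 CPM in S-PRT and 43.2, 36.6 and 50 CPM in F-PRT. The groups overlapped, since F-PRT 3 lay below S-PRT 2 (log2 difference 0.36 ± 0.11 SE, adjusted p = 0.19 by edgeR). The next by p were Mrpl18 at 0.35 ± 0.11, Mrpl28 at 0.42 ± 0.14, Mrpl58 at 0.32 ± 0.11 and Mrpl2 at 0.29 ± 0.10 (SE, adjusted p from 0.21 to 0.23 by edgeR). Mrps18c lay the other way, with 28.6, 28.4 and 27.6 CPM in F-PRT, a log2 difference of -0.10 ± 0.12. A p that misses the threshold does not show that the modes act alike on these genes.

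Genes of similar effective length moved by similar amounts. Effective length is the transcript length, in bases, over which a sequenced fragment can start, and ran from 199 to 3340 over the members with a median of 790. The 1700 other protein-coding genes between 555 and 1150 bases, the quartiles of the members, had a median log2 fold change of 0.34 in F-PRT against NR, with 566 higher (33.3%) and 7 lower. The 38 members in that range had a median of 0.36, with 18 higher. In S-PRT against NR the same 1700 genes had a median of 0.15, and in F-PRT against S-PRT one of 0.18, next to 0.18 and 0.17 for all members. Requiring similar mean CPM as well left 223 genes, with 52% higher in F-PRT against NR and a median of 0.34. The 10979 genes longer than the window had 598 higher, 1206 lower and a median of -0.05.

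In the comparisons with NR the shorter members differed more. In F-PRT against NR the 26 shortest members (199 to 599 bases) had 21 higher and a median of 0.45, the next 26 (625 to 978 bases) had 8 higher and a median of 0.28, and the 26 longest (980 to 3340 bases) had 8 higher and a median of 0.24. Other genes in these ranges had medians of 0.48, 0.37 and 0.069. In the longest range the other genes were longer, with a median effective length of 2040 bases against 1340 for the members. Other genes of 1020 to 1450 bases had a median of 0.24. In S-PRT against NR the members' medians were 0.28, 0.17 and 0.084. Across genes, which are not independent replicates, Spearman's rho between effective length and log2 fold change was -0.58 over members and -0.59 over the 13130 other protein-coding genes in F-PRT against NR. In S-PRT against NR it was -0.62 and -0.40. Between the modes it was -0.23 over members and -0.49 over the other genes, and the members' medians were 0.20, 0.12 and 0.16. The 3 longest members lay above the median of other genes of their length, with Mrpl19 (3340 bases) at 0.34 ± 0.12, Mrps30 (3100 bases) at 0.22 ± 0.13 and Mrpl1 (2410 bases) at 0.25 ± 0.099 in F-PRT against NR, none past the threshold. Genes of 2050 to 2900 bases had a median of -0.016 and those of 2900 to 4100 bases one of -0.14. Mrps2, Mrpl50 and Mrpl39, of 1860 to 2030 bases, lay below the median of 0.12 of genes of 1450 to 2050 bases, at -0.016, 0.00095 and -0.10. After the trend on length was removed within each library, 31 of the 78 members were negative in F-PRT against NR, beside 2 before. Mrpl3, Mrps5, Mrpl42, Mrps36, Mrpl58, Mrps18c and Mrps22 were the named ones that turned negative, from -0.27 to -0.04. RNA integrity numbers were above 9 per the labels, with no value for each library, and the part of transcript length or RNA quality in these differences was not tested.

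**Figure D3:**
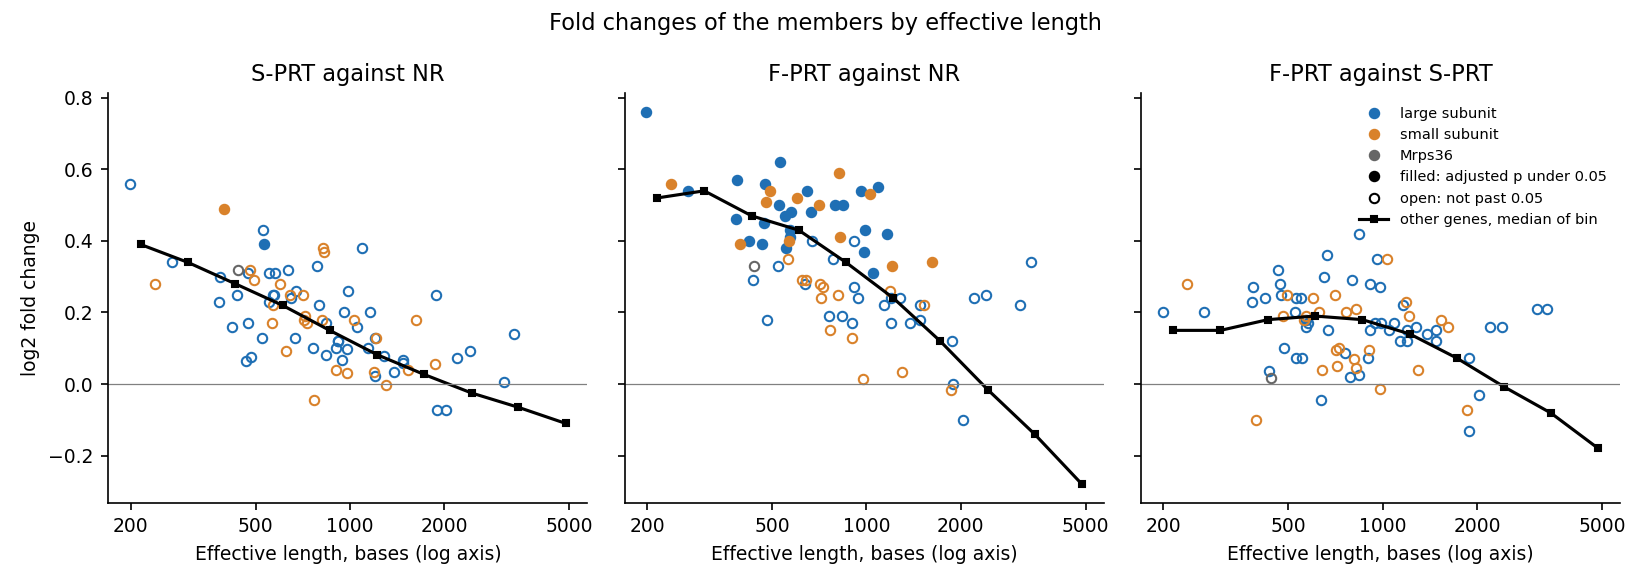
Log2 fold change of each member against its effective length (log axis) in the 3 comparisons, blue for the large and orange for the small subunit, filled where the adjusted p was under 0.05, with squares for the median of other protein-coding genes in bins of length. In F-PRT against NR short members lie higher than long ones, as the squares do, and Mrpl1, Mrps30 and Mrpl19, the 3 longest, lie above the squares.

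Libraries of a group differed in how far the members lay from NR. The median member minus the NR mean was 0.35, 0.33, 0.077 and -0.047 on the log2 scale in S-PRT 1 to 4 and 0.25, 0.24 and 0.51 in F-PRT 2 to 4, while NR libraries stayed between -0.037 and 0.023. S-PRT 1 and 2 were high, S-PRT 4 lay just below the lowest NR library and F-PRT 4 was highest. Genes of similar effective length gave 0.24, 0.19, 0.14 and 0.053 in S-PRT and 0.27, 0.20 and 0.53 in F-PRT, so S-PRT 1 and 2 had larger values for the members and S-PRT 3 and 4 smaller ones. Without F-PRT 4 the members called in F-PRT against NR dropped from 37 to 14 and the median from 0.34 to 0.24. Over all genes, those called higher dropped from 1579 of 14556 to 680 of 14792.

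By correlations of their deviations from the group means, libraries 1 and 2 of NR and S-PRT went with F-PRT 3, and libraries 3 and 4 with F-PRT 2 and 4. F-PRT 4 was tied to NR 3 and 4 (0.234 and 0.233) but to no S-PRT library (-0.156 to 0.0686). These sets were read from the data, members among them, and no label gives a batch. Differences within the sets are therefore not independent of how the sets were chosen, and members are not replicates. Within the first set the median member was higher by 0.29 in S-PRT than in NR and by 0.23 in F-PRT than in NR. Within the second it was higher by 0.046 in S-PRT and by 0.39 in F-PRT. F-PRT 3 minus S-PRT 1 and 2 gave -0.078 with 15 members positive, while F-PRT 2 and 4 minus S-PRT 3 and 4 gave 0.38 with 78 positive. Genes of similar length gave -0.014 and 0.28. The first set holds only 1 F-PRT library, and the SD of the members' medians over the F-PRT libraries was 0.15.

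**Figure D4:**
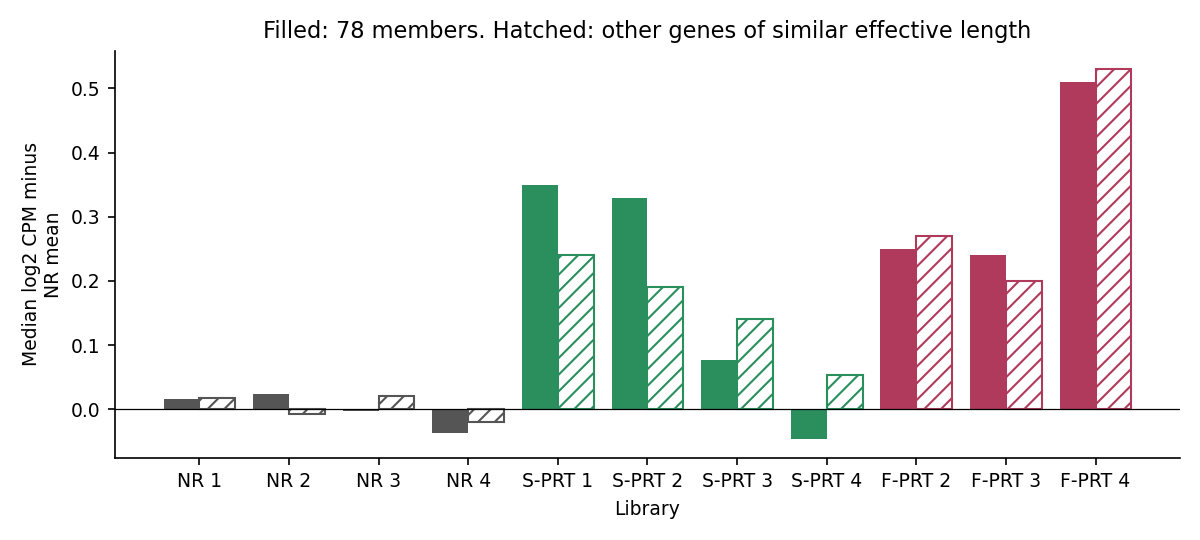
Median over the 78 members (filled) and over 1700 genes of similar effective length (hatched) of log2 CPM minus the NR mean, for each library, coloured by group. F-PRT 4 is highest at 0.51 and 0.53 and S-PRT 4 lies near NR.

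The other parts of the mitochondrial translation system were taken from gene lists. As background for every list, 1579 of all 14556 genes tested (10.8%) were called higher in F-PRT against NR and 1262 lower. Of 5 mitoribosomal proteins with other symbols 3 rose in F-PRT against NR, namely Aurkaip1 (0.43 ± 0.11), Gadd45gip1 (0.45 ± 0.12) and Chchd1 (0.52 ± 0.17, adjusted p from 0.018 to 0.047 by edgeR). Dap3, the GTP-binding small-subunit protein, had 0.28 ± 0.12 and Ptcd3, of 2210 bases, -0.23 ± 0.12, neither past the threshold. Of 27 assembly and rRNA modification factors 4 rose and 0 fell (median 0.16). Mpv17l2, which helps to assemble the ribosome, went from 7.35 ± 0.586 to 12 ± 1.58 CPM (0.71 ± 0.12, adjusted p = 0.0065 by edgeR). Rbfa, the small-subunit maturation factor, rose by 0.43 and Malsu1, which keeps the subunits apart during assembly, by 0.48 (adjusted p = 0.019 and 0.038 by edgeR).

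Of 15 translation and mRNA stability factors 2 rose and 1 fell in F-PRT against NR (median 0.0012). Slirp, which with Lrpprc stabilises mitochondrial mRNAs, was the one factor also called in S-PRT. It had 20 ± 2.2 CPM in NR, 33.2 ± 3.98 CPM after S-PRT and 30.6 ± 2.32 CPM after F-PRT (log2 fold changes 0.73 and 0.61, adjusted p = 0.0086 and 0.0084 by edgeR), with no whole counts in any library. Lrpprc itself (4160 bases) fell by 0.29 in F-PRT (adjusted p = 0.036 by edgeR). Tsfm, the elongation factor Ts of mitochondria, rose by 0.52 (adjusted p = 0.016 by edgeR). Of 20 mitochondrial aminoacyl-tRNA synthetases and partners 0 rose and 1 fell, Mars2 by 0.39 (adjusted p = 0.026 by edgeR). This list has a median effective length of 1890 bases, against 790 for the members.

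Of 15 genes of mitochondrial DNA transcription, replication and RNA processing only Polg2, the accessory subunit of the DNA polymerase, rose (0.75 ± 0.22, adjusted p = 0.032 by edgeR) and 0 fell. Of 9 regulators of nuclear mitochondrial genes 0 rose and 2 fell in F-PRT, beside 1262 of all 14556 genes tested that fell. Gabpa, the DNA-binding subunit of GABP, went from 39.9 ± 1.95 CPM in NR to 32 ± 1.56 in S-PRT (-0.32 ± 0.089, adjusted p = 0.097) and 28.8 ± 4.12 in F-PRT (-0.47 ± 0.097, adjusted p = 0.011, both by edgeR). Ppargc1a, a coactivator of mitochondrial biogenesis, fell by 0.55 ± 0.14 in F-PRT (adjusted p = 0.021 by edgeR). Nrf1 and Yy1 had -0.0083 and -0.12, neither past the threshold. Both fallen genes are long, with 4340 and 5770 bases. Of 11 mitochondrial chaperones and proteases Atf5, a transcription factor of the mitochondrial stress response kept in this list, rose by 0.44 and Yme1l1, an inner-membrane protease, fell by 0.33 (adjusted p = 0.019 and 0.018 by edgeR).

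Mitoribosomal RNAs mt-Rnr1 and mt-Rnr2 had log2 differences of 0.12 ± 0.25 and -0.17 ± 0.29 in F-PRT against NR and 0.33 ± 0.23 and 0.24 ± 0.27 in S-PRT, in libraries selected for poly(A). Of the 13 mRNAs that mitoribosomes translate 0 rose and 1 fell in F-PRT, mt-Nd4l by 1.15 ± 0.35 (adjusted p = 0.038 by edgeR), whose counts were not whole in any library. Their median was -0.18 in F-PRT and 0.30 in S-PRT against NR. Cytosolic ribosomal protein genes, with a median effective length of 447 bases, had 75 of 79 higher in F-PRT (median 0.53) and 9 in S-PRT (median 0.33), of which Rps27l, a target of p53, had 0.81 ± 0.095 and 0.76 ± 0.089 (SE). Nuclear respiratory chain genes, chosen by symbol and 483 bases long at the median, had 48 of 91 higher and 1 lower in F-PRT (median 0.42) and 0 called in S-PRT (median 0.20, 24 at an unadjusted p under 0.05). Ndufa2, a complex I subunit, led them with 0.68 ± 0.14 in F-PRT.

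**Figure D5:**
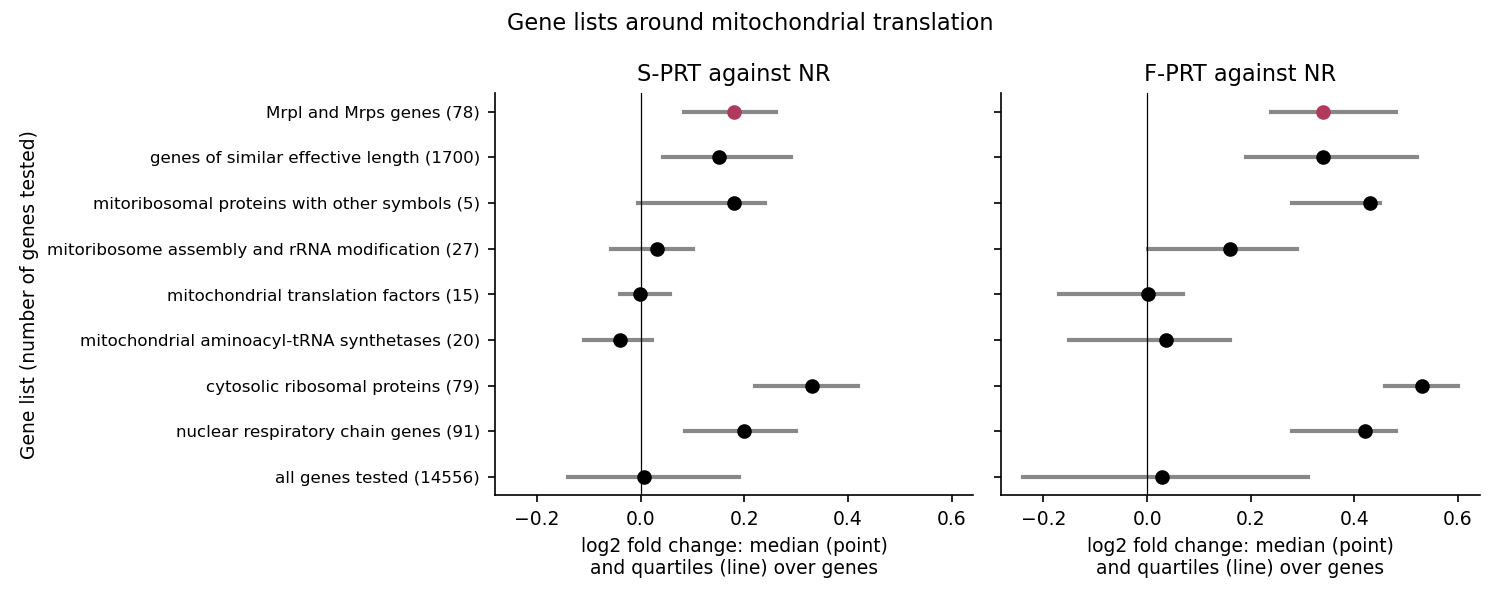
Median (point) and quartiles (line) over genes of the log2 fold change of each list in S-PRT and F-PRT against NR, with the number of genes tested. The Mrpl and Mrps genes lie beside genes of similar effective length, below the cytosolic ribosomal proteins and above the synthetases and translation factors.

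Promoter letters were set beside the fold changes as a description. The 26 members with CCGGAAG had a median log2 fold change of 0.43 in F-PRT against NR and the 43 with a promoter entry but no match one of 0.28. For AAGATGGC the medians were 0.29 with (12 members) and 0.38 without (57), and for GCGCATGCG 0.22 with (7) and 0.39 without (62). Members with and without a match were not matched for effective length. Mrpl52, Mrps21 and Mrpl33, the shortest members, of 199, 238 and 270 bases, all hold CCGGAAG. The part of length in these medians was not tested. Mrps22 holds CCGGAAG and differed by 0.015, so a match did not go with a change in every member. In GENCODE M21 a protein-coding gene on the other strand started within 1000 bases of 33 members (42.3%), beside 15.4% of the other tested protein-coding genes. Some of these neighbours also serve mitochondria, such as Sars2, a mitochondrial synthetase next to Mrps12, Twnk, the mitochondrial DNA helicase, next to Mrpl43, and Ndufb5 next to Mrpl47. Mrpl46 and Mrps11 are such a pair within the set. While Mrps12 rose by 0.54 in F-PRT, Sars2 had -0.17 ± 0.12, and Twnk had 0.016 ± 0.072.

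Markers of the cells in the tissue were looked up beside the members. Over all 14556 genes tested, 1579 were called higher and 1262 lower in F-PRT against NR, and 127 and 61 in S-PRT against NR. In F-PRT against NR 2 of 10 cardiomyocyte markers rose and 1 fell, with summed CPM of 49600 to 58200 in NR, 48700 to 58200 after S-PRT and 52400 to 59500 after F-PRT. Tnnc1 (498 bases) rose by 0.61 and Ryr2 (10700 bases) fell by 0.86. Of 8 endothelial markers 1 rose and 2 fell (421 to 612 summed CPM in NR, 291 to 409 after S-PRT, 289 to 524 after F-PRT). Of 8 fibroblast markers 2 fell (856 to 1680, 1020 to 1150 and 477 to 1170). Of 8 macrophage and monocyte markers 2 rose (112 to 189, 184 to 365 and 152 to 282), among them Ccr2 by 2.18. Of 6 pericyte and smooth muscle, 5 erythroid and 3 tested lymphocyte markers 0 were called in F-PRT against NR, with 1, 0 and 0 at an unadjusted p under 0.05. In S-PRT against NR the endothelial markers Flt1 and Tek fell and Ccr2 rose, and 0 of the other markers were called. Cd3e, Cd3d and Nkg7 fell below the count filter, and 0 markers were at 0 in all libraries. The part of cell composition in the members' values was not tested.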

How the data were processed

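Bulk RNA-seq of 11 libraries was used. The authors' deposited values, per the file headers, are RSEM expected counts, which are estimated counts that need not be whole, and TPM, scaled by effective length. The submitters' processing notes name edgeR, RSEM, STAR, cutadapt and FastQC, and both GRCm39 and mm10 as builds. Per the labels' protocols, libraries were poly(A)-selected and directional. The use of strand in counting was not given in the sources used, and overlapping genes are uncertain. Expected counts were rounded, filtered (filterByExpr, minimum count 10, minimum total 15, 14556 genes), TMM-scaled and fitted with edgeR 4.0.16 in R 4.3.3 over all 11 libraries (8 residual degrees of freedom). Genes were called at a Benjamini-Hochberg adjusted p under 0.05, and SE is the fold change over the root of its F. The fits were tested on simulated data in which genes were drawn independently. The simulation held no trend on effective length and no sets of libraries, so it cannot speak to those features of the data.

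Members and lists were chosen with earlier results of these data known. In each comparison the text names up to 10 called members with the largest change in each direction or, with under 3 calls, the 5 with the smallest p, plus the 3 highest, lowest, longest and shortest members, 14 fixed members, and up to 3 called genes of each list, or 2 by p. Mrps30, Mrpl1 and Mrpl19 count under both level and length. Same-numbered NR and S-PRT libraries correlated at 0.184 to 0.363 in deviations from group means over 11107 genes, all over 0.1, and so met the rule for a block. Differently numbered ones within libraries 1 and 2, or within 3 and 4, correlated at 0.167 to 0.443. The check therefore cannot tell pairs by number from these sets, and no label ties the numbers to an animal or day. F-PRT numbers did not meet the rule. Alternatives were DESeq2 1.42.0, limma 3.58.1 on log2(TPM + 1) and log2(TPM + 0.1), sva 3.50.0, RLE or library-size scaling, no filter, a lowess trend on effective length (span 0.3), only the 2 groups compared, the replicate block, each library left out and, chosen after seeing the data, only members with whole counts.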

Additional observations from a re-analysis of the deposited data

Results flagged for a closer look

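Among the 28 named members in the NR and S-PRT groups of 4 libraries (56 pairs of member and group looked at), 1 library stood apart from the rest of its group. Mrps36 had 40.3 CPM in NR 4 and 37.2 to 37.6 CPM in the other NR libraries. Chance flags about 1 in 20 groups, and F-PRT with 3 libraries was not looked at. The expected counts of Mrps36 were whole in 2 of 11 libraries.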

How the results depend on the processing

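In S-PRT against NR, 2 members were called, and 12 with 1 surrogate variable, 6 with DESeq2, 5 with only the 2 groups compared, 4 with no filter, 13 with the replicate block, and 0 with library size only, log2(TPM + 0.1), log2(TPM + 1), the trend on effective length removed or only members with whole counts (2, 0, 0, 10 and 12 at an unadjusted p under 0.05). Over all genes in S-PRT against NR 127 of 14556 were called higher, and 260 with 1 surrogate variable and 460 with DESeq2. With only the 2 groups 334 of 14069 were higher, with no filter 439 of 27414 and with the block 903 of 14069. Library size only gave 11, log2(TPM + 0.1) gave 3, log2(TPM + 1) gave 1 and the trend removed gave 32. Leaving out 1 library gave 0 to 5 members, beside 20 to 267 of all genes called higher. In F-PRT against NR, 37 members were called, and 61 with 1 surrogate variable and 22 of the 48 with whole counts. Library size only, either TPM setting, the replicate block or the trend removed gave 0 (45, 20, 20, 38 and 13 at an unadjusted p under 0.05). These numbers do not pair the F-PRT libraries (correlations with NR of -0.151, -0.446 and 0.233). Leaving out 1 library gave 14 (without F-PRT 4) to 39, with 19, 22, 22 and 19 without NR 1 to 4. In F-PRT against S-PRT each setting gave 0. The cause of these shifts was not tested. The members' median in S-PRT against NR reversed to -0.04 and -0.039 on log2(TPM + 0.1) and log2(TPM + 1), where the median of all genes was -0.19 and -0.13, and relative to that it was 0.15 and 0.092. The medians with the trend removed were 0.012 in S-PRT against NR, 0.016 in F-PRT against NR and 0.014 in F-PRT against S-PRT. With library size only the S-PRT against NR median was 0.03, beside 0.18. In F-PRT against S-PRT the median was 0.38 with library size only and 0.36 on both TPM settings, where all genes had 0.19, 0.19 and 0.13. Leaving out 1 library, the median ran from 0.12 to 0.24 in S-PRT against NR. It ran from 0.24 to 0.39 in F-PRT against NR. Between the modes it ran from 0.063 (without F-PRT 4) to 0.23. With the trend removed, 31 of 78 members were negative in F-PRT against NR, beside 2, and of those named it reversed for Mrps18c (-0.04), Mrpl58 (-0.043), Mrpl3 (-0.14), Mrps5 (-0.18), Mrps36 (-0.11), Mrpl42 (-0.13) and Mrps22 (-0.27). Mrps22 also reversed with DESeq2 (-0.014), log2(TPM + 1) (-0.0014), only the 2 groups (-4.7e-05), the replicate block (-0.07), RLE (-0.012) and without F-PRT 3 (-0.021), NR 1 (-0.051) or S-PRT 3 (-0.035), its highest value with 1 library left out being 0.066 (NR 3). Over all genes in F-PRT against NR 1579 were higher and 1262 lower, and 69 and 65 with library size only, 37 and 34 on log2(TPM + 1), 22 and 7 with the block and 279 and 218 with the trend removed. With 1 surrogate variable 2150 of all genes were higher and 1658 lower in F-PRT against NR. Leaving out 1 library, 680 (without F-PRT 4) to 2049 (without F-PRT 3) were higher there, with 846, 918, 933 and 900 without NR 1 to 4. In S-PRT against NR 67.6% of called genes were higher, and 78.6% with library size only and 50% on log2(TPM + 1).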
